A study of Mus musculus with 53 samples.

Results

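The 6 genes Pou5f1 (which encodes Oct4), Sox2, Sall4, Lin28a, Utf1 and Fgf4, at the centre of the pluripotency programme of mouse embryonic stem cells were followed here. They were taken by name, and all 6 are among the 11647 genes of the bulk RNA table and the 23235 genes of the single-cell table. The series holds 53 samples of R1 mouse embryonic stem cells, grown with serum and LIF and without feeder cells per the labels. Tbx3, a T-box transcription factor, was wildtype (+/+), heterozygous (+/N) or null (N/N) in one set of bulk RNA libraries, and wildtype cells with a hairpin against luciferase (shLuc) or Tbx3 (shTbx3) made the other set, with 1 library per population. For the Tbx3 sites, N/N cells with the biotin ligase BirA were given a biotin- and Flag-tagged Tbx3 (bfTbx3) that was captured on streptavidin, and N/N cells with BirA alone were the control. A further 45 single cells and 1 pool came from wildtype R1 cells sorted as SSEA1+DAPI-, that is, carrying a surface antigen of mouse embryonic stem cells and excluding a dye that stains dead cells. The labels used here do not say whether a population was 1 clone, which part of Tbx3 was changed in the N allele, or which promoter drove bfTbx3.

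Oct4, a POU-domain factor, and Sox2, an HMG-box factor, bind DNA side by side on a composite element, a SOX motif next to an octamer motif. Enhancers of Pou5f1 and Sox2 themselves, and of Utf1 and Fgf4, carry such elements, so the pair acts on its own genes as well as on its targets. Sall4 is a zinc-finger factor that works with the NuRD repressor complex, Lin28a is an RNA-binding protein that blocks maturation of let-7 microRNAs, Utf1 is a chromatin-associated factor of undifferentiated cells, and Fgf4 is the secreted ligand whose ERK signal readies the cells for differentiation.

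Tbx3 sites lay near 5 of the 6 genes. Within 20 kb of an annotated start there were 4 sites at Pou5f1, 4 at Sox2, 3 at Utf1, 2 at Fgf4 and 1 at Sall4, or 14 of the 3078 sites in the list, and none at Lin28a. Of 11086 coding genes at 1 FPKM or more in a bulk library, 17.1% had such a site and 0.153% had 4 or more. FPKM is a fragment count divided by the length of the transcript and by the size of the library. Sites were called from 1 precipitation, so their number and height have no replicate check, and the authors' peak score is used only to rank sites within this list, where it ran from 50.01 to 791.25 with a median of 76.65.

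At Pou5f1, on chromosome 17 (mm9, plus strand, start at 35642982), 3 of the 4 sites were upstream. Their nearest edges stood at -590, -1586 and -2916 bp from the start, with scores of 88.07, 163.2 and 105.16. The highest, chr17:35640740-35641396, covers the interval in which the known distal enhancer of Pou5f1 lies. The fourth, at 10578 bp with a score of 137.82, covered annotated starts of Tcf19 and Cchcr1, so it cannot be assigned to Pou5f1 by position. At Utf1, on chromosome 7, the highest site, chr7:147131259-147131813, began 1571 bp from the start and just beyond the end of the gene, where an enhancer of Utf1 is known, and scored 151.47. The other two stood at 5894 bp (score 130.39) and 6543 bp (score 77.4, over the start of Gm16201).

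The highest-scoring sites around Sox2 lay far from the gene. The 4 within 20 kb stood at -3361, 3855, 12728 and 18386 bp with scores of 120.35, 51.42, 59.46 and 73.36, and all 4 lay in introns of the overlapping non-coding gene Sox2ot. Beyond that window, named after their values were seen, 4 further sites lay downstream between 84945 and 110994 bp, and those at 106308 and 110994 bp had scores of 301.97 and 439.43, ranks 104 and 38 of the whole list. The distal control region of Sox2, its main enhancer in embryonic stem cells, is known to lie in this downstream stretch.

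Fgf4 had a site over its own start (chr7:152046749-152047440, score 74.07), which overlapped its first exon, and another at -3045 bp (score 100.8). The 1 site of Sall4 within the window, at -1442 bp, scored 58.22. Just beyond the window, named after their values were seen, Fgf4 had a site at 27222 bp with a score of 244.97 (rank 181). Sall4 likewise had a site at -22981 bp with a score of 104.96. Both scored higher than the sites of the same gene within the window. Lin28a had its nearest site at 118011 bp, with a score of 68.61.

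**Figure D1:**
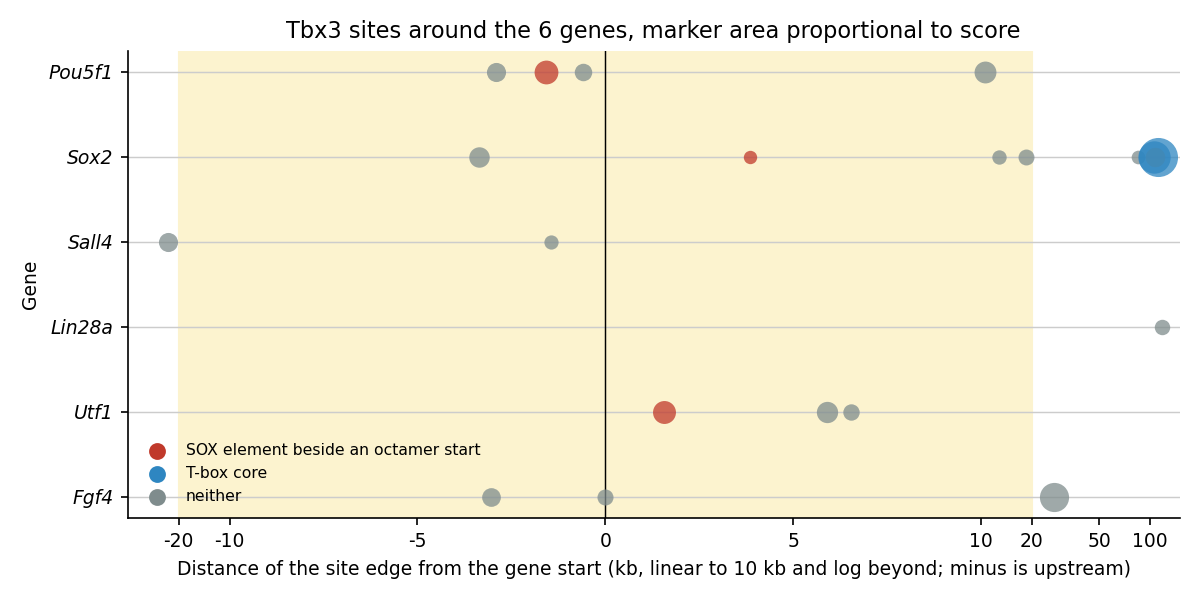
Tbx3 sites by distance from the start of each gene in kb (horizontal axis, linear to 10 kb and logarithmic beyond, minus is upstream), 1 row per gene, with marker area proportional to the authors' peak score. The shaded band is the 20 kb window, which holds 14 sites and none at Lin28a; red marks the sites with a SOX element beside the start of an octamer (1 each at Pou5f1, Sox2 and Utf1), blue the 2 distal Sox2 sites with a T-box core, grey all others.

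Of these sites 3 held a SOX element (CNTTGT, N any base) followed, after 1 base, by ATGC, the start of the octamer. This shortened composite was chosen after the site sequences had been seen, and was searched exactly and on both strands. It was present in 90 of the 3078 sites (2.92%). In the genes and 5000 bp on either side of all 6 it matched 3 times, once each at Pou5f1 (-1984 bp), Sox2 (4044 bp) and Utf1 (1896 bp), and all 3 matches lay inside a Tbx3 site. Since the word was chosen from these sequences, the place of its matches lends no support to a shared feature. The other sites of these 3 genes lack it. The Sox2 site that holds it scored 51.42, near the lowest score of 50.01. The 3 stretches below, from the mm9 genome, show the match in capitals with 60 bases on either side, 1 for each gene.
Pou5f1, chr17:35640938-35641068, minus strand: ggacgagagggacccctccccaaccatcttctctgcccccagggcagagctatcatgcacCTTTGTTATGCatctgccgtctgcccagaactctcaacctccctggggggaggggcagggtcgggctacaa
Sox2, chr3:34552911-34553041, plus strand: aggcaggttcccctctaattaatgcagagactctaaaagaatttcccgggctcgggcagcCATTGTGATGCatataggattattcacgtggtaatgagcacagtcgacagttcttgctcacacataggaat
Utf1, chr7:147131524-147131654, minus strand: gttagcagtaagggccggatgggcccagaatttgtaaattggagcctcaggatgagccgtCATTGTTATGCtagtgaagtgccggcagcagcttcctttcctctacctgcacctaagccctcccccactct

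Fgf4 has its composite in another arrangement, with 4 bases between CNTTGT and ATGC. The 1 match of that wider form near any of the 6 genes, CTTTGTTTGGATGC on the plus strand, lay 3008 bp from the Fgf4 start, in its 3′ untranslated region, and not in a Tbx3 site. This form was present in 16 of all sites (0.52%) and was likewise searched for after the sequences had been seen.

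The T-box core GGTGTGA, the motif that T-box factors are known to bind, was in none of the 14 sites and in 13.5% of all 3078. It was in 2 of the distal Sox2 sites, which are those with the highest scores around any of the 6 genes, and is shown in capitals because only these 2 carry it among the sites described here.
Sox2 distal, chr3:34655288-34655414, plus strand: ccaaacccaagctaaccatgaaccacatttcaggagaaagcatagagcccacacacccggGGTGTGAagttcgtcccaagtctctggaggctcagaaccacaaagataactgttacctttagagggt
Sox2 distal, chr3:34660238-34660364, plus strand: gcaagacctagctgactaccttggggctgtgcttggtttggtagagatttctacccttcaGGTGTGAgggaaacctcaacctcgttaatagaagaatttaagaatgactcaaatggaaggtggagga

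The full octamer ATGCAAAT, in 8.45% of all sites, had no match in the 14, and neither did the longer composite that adds NAA to the shortened one, in 0.292%. In the 300-base promoters given by RefSeq (GRCm38.p6), found for 5 of the 6 genes and not for Sall4, the SOX element alone matched at Pou5f1, Sox2 and Lin28a, beside 41.2% of all 32851 promoters. The T-box core (3.98% of promoters), the octamer (1.74%) and the shortened composite (0.286%) had no match there. These matches describe letters in a window and say nothing of occupancy by Oct4 or Sox2.

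In bulk RNA the 6 genes were compared between libraries with more and less Tbx3. In each of the 4 comparisons 0 of 6 differed by 2-fold or more, on the scale log2((a + 1)/(b + 1)) of FPKM, although Tbx3 itself stood at 44.4, 22.5 and 15.1 FPKM in +/+, +/N and N/N and at 13.8 and 5.09 FPKM in shLuc and shTbx3. Among all genes that reached 1 FPKM in either library, 3.28% differed that much between N/N and +/+, 1.91% between +/N and +/+, 0.625% between N/N and +/N, and 3.8% between shTbx3 and shLuc. A count of 0 of 6 is near those shares, so it did not set the 6 genes apart from other genes. At 1.5-fold, 0 of 6 differed in the allele comparisons, beside 11.9%, 7.36% and 1.78% of all genes in the same order, and 1 of 6, Fgf4, in the hairpin pair, beside 16.5%. With 1 library per population none of these differences has a replicate check, and bulk values cannot tell fewer cells of a type from less RNA per cell. The N/N and +/N libraries were both read against the same +/+ library.

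Pou5f1 levels were 660, 540 and 532 FPKM in +/+, +/N and N/N, and 959 and 1034 FPKM in shLuc and shTbx3. It was therefore lower in both libraries with an N allele and slightly higher with the hairpin, and it ranked between 26 and 73 of 11647 genes everywhere. The level in N/N was 80.7% of that in +/+ (log2 -0.31), a size of difference exceeded by 34.8% of all genes tested. Reads of Pou5f1 may be shared with its processed pseudogenes, which these values do not separate.

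Sox2 was at 245, 213 and 202 FPKM in +/+, +/N and N/N, and at 212 and 247 FPKM in shLuc and shTbx3. N/N was at 82.4% of +/+ (log2 -0.28) and shTbx3 at 116% of shLuc (log2 0.22). Sox2 and Sox2ot overlap, and the sources used here do not say whether strand was used in counting.

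Sall4 had the largest difference of the 6 in the allele set, with 83.4, 63.9 and 61.1 FPKM in +/+, +/N and N/N. N/N was at 73.3% of +/+ (log2 -0.44), and 20.6% of all genes differed more. In the hairpin pair it was at 31.8 FPKM in shLuc and 39.1 in shTbx3 (log2 0.29).

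Lin28a ran the other way, with 58.5, 63.8 and 69.3 FPKM in +/+, +/N and N/N and 67.96 and 58.4 FPKM in shLuc and shTbx3. Its differences were a log2 of 0.24 for N/N against +/+ and -0.21 for the hairpin pair. Utf1 was level across the alleles, at 597, 564 and 602 FPKM, and at 314 FPKM in shLuc and 443 in shTbx3, which is 141% of its control (log2 0.50).

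Fgf4 was flat across the alleles, at 87.2, 88.8 and 86.2 FPKM in +/+, +/N and N/N. With the hairpins it stood at 95.5 FPKM in shLuc and 59.8 in shTbx3, or 62.6% (log2 -0.67), the widest difference of any of the 6 genes in any comparison, exceeded by 11.7% of all genes tested there.

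**Figure D2:**
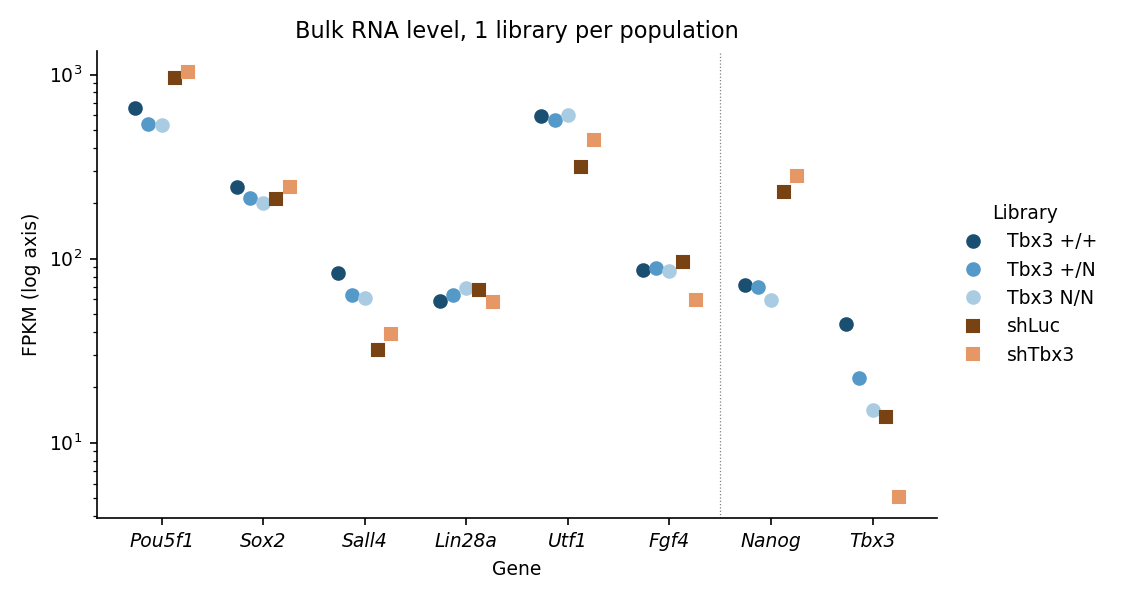
FPKM on a log axis of the 6 genes, and of Nanog and Tbx3 for reference, in the 5 bulk libraries (circles, allele set; squares, hairpin set; 1 point is 1 library, so there are no error bars). The points of each of the 6 genes lie close together within a set, Fgf4 at 95.5 and 59.8 FPKM in the hairpin pair being the widest, while Tbx3 steps down within each set.

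These small differences sit on shifts that affect all genes. Over genes that reached 5 FPKM in each of the compared libraries, the median log2 difference was -0.03 for N/N against +/+, -0.12 for +/N against +/+, 0.09 for N/N against +/N and 0.16 for shTbx3 against shLuc. Relative to that shift, Pou5f1 in the hairpin pair moved from 0.11 to -0.05, Sox2 from 0.22 to 0.06 and Sall4 from 0.29 to 0.13, while Fgf4 moved to -0.83 and Lin28a to -0.37. In N/N against +/+ the shifted values of Pou5f1, Sox2 and Sall4 were -0.28, -0.25 and -0.42. FPKM is scaled per transcript length, so levels can be ordered within a library. In the allele set the ranges of Pou5f1 (532 to 660 FPKM) and Utf1 (564 to 602 FPKM) overlapped at the top, Sox2 followed, and those of Sall4 and Lin28a overlapped at the bottom.

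Genes that work with the 6 were read from lists. Of 22 measured genes of the Oct4 and Sox2 network, 1 was at least 2-fold lower in N/N than in +/+ and none higher, near the 3.28% of all genes in that comparison, and their median log2 difference was -0.25 beside -0.03 for all genes. The 1 was Foxd3, a forkhead factor, at 15.9 and 5.94 FPKM. Zfp42, a zinc-finger marker of naive cells, was at 196 and 115 FPKM, and Nr0b1, an orphan nuclear receptor, at 91.3 and 55.3 FPKM. In the hairpin pair 0 of 22 passed 2-fold, beside 3.8% of all genes, with a median of 0.20 beside 0.14 for all genes. There Foxd3 was at 11.6 FPKM in shLuc and 23.2 in shTbx3, Nr0b1 at 43.8 and 82.7, and Tdgf1, a Nodal co-receptor, at 215 and 107 FPKM (log2 -0.997, just inside the 2-fold limit). Nanog was at 71.6, 70.4 and 59.9 FPKM in the allele set and at 230 and 280 FPKM in the hairpin pair.

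Sall4's relatives and the NuRD subunits gave 1 of 13 genes at least 2-fold lower in N/N against +/+, beside 3.28% of all genes. It was Sall1, at 52.2 and 22.7 FPKM. NuRD subunits stayed nearer, as with Gatad2a at 62.6 and 45.1 FPKM and the scaffold Mta2 at 52.2 and 41.0 FPKM. In the hairpin pair 0 of 13 passed, and Mbd3, a core NuRD subunit, was at 76.7 FPKM in shLuc and 113 in shTbx3 (log2 0.56). Among 14 genes of the Lin28 and let-7 pathway 0 passed 2-fold in any of the 4 comparisons. Trim71, a let-7 target, was at 37.7 and 22.9 FPKM in +/+ and N/N, but at 15.7 and 25.3 FPKM in shLuc and shTbx3.

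The Fgf pathway had the most genes past 2-fold of the 5 lists in the hairpin pair. In shTbx3 5 of 22 measured genes passed 2-fold upward and none downward, beside 3.8% of all genes past 2-fold in either direction, with a median log2 of 0.34 beside 0.14 for all genes, whereas Fgf4 itself was lower. Fgf8, another Fgf ligand, was at 0.320 FPKM in shLuc and 25.4 in shTbx3 (log2 4.32), Dusp4, a phosphatase that acts on ERK, at 4.93 and 29.2, and Fgf17 at 12.1 and 28.4. A gene that reached 1 FPKM in shTbx3 alone, as Fgf8 did, was tested only through that library and could pass only upward. The upward count is limited by this. In N/N against +/+ the median of 20 measured genes was -0.41, and 1 passed 2-fold, beside 3.28% of all genes. It was Spry4, an inhibitor induced by the pathway, at 25.8 and 8.92 FPKM. Etv4, an ERK-induced factor, was at 38.7 and 20.1 FPKM. Among other Sox and Pou genes 3 of 13 were at least 2-fold lower in N/N, beside 3.28% of all genes past 2-fold, among them Pou3f1 (Oct6), at 20.8 and 8.67 FPKM. In the hairpin pair 1 of 12 passed 2-fold upward, beside 3.8% of all genes, Sox11, at 2.70 and 7.39 FPKM. In +/N against +/+ 2 of 13 other Sox and Pou genes were at least 2-fold lower, beside 1.91% of all genes, among them Pou3f1 at 9.57 FPKM in +/N, and none of the other 4 lists had a gene past 2-fold there. In N/N against +/N no gene of the 5 lists passed, beside 0.625% of all genes. There only 11 of the other Sox and Pou genes were tested, so some of the 13 reached 1 FPKM in +/+ alone. Such genes could pass only downward, which limits the downward counts of 3 and 2 of 13.

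Markers of other cell types were summed in the same libraries. In the hairpin pair, primitive streak markers (2 of 6 in the table) summed to 1.86 FPKM in shLuc and 40.2 in shTbx3, neuroectoderm markers (2 of 5) to 6.38 and 15.9, and trophectoderm markers (2 of 5) to 1.87 and 15.1. In shTbx3 a single gene held 35.5 FPKM of the primitive streak sum, 14.4 of the neuroectoderm sum and 8.81 of the trophectoderm sum. Fibroblast markers (5 of 8) summed to 6.21 FPKM in shLuc and 7.77 in shTbx3, and primitive endoderm markers (4 of 6) to 2.72 and 2.06. In the allele set fibroblast markers (5 of 8) summed to 37.0, 70.1 and 68.4 FPKM in +/+, +/N and N/N, though 2 of the 5 were lower in N/N than in +/+. Trophectoderm markers (2 of 5) summed to 4.61, 6.38 and 9.17 FPKM in the same order, primitive endoderm markers (4 of 6) to 12.9, 4.38 and 2.50, primitive streak markers to 2.50, 2.43 and 2.32, and neuroectoderm markers to 5.59, 3.86 and 4.84. Embryonic stem cell markers, of which 7 of 8 were in the table and all 7 at 1 FPKM or more in every library, summed to 1285 to 2166 FPKM. The part of other cell types in the values of the 6 genes was not tested.

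In single cells the 6 genes were far from even. The number of cells at 1 FPKM or more was 45 of 45 for Sall4, 40 for Utf1 (88.9%, exact Clopper-Pearson 95% interval 75.9% to 96.3%), 36 for Lin28a (80%, 65.4% to 90.4%), 35 for Sox2 (77.8%, 62.9% to 88.8%), 22 for Fgf4 (48.9%, 33.7% to 64.2%) and 11 for Pou5f1 (24.4%, 12.9% to 39.5%). The intervals cover counting error over cells only, and the cells are 1 population, not replicates of a condition. The median over the 6 was 78.9%. Nanog reached 1 FPKM in 12 cells, and Zfp42 in 45.

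The cells had 1642 to 3295 genes at 1 FPKM or more, against 11678 in the pool. The column headers list the cells in a run of 23 (block 1) and a run of 22 (block 2), each in ascending order of cell number, and the labels say that about 24 libraries were mixed at a time. Whether the blocks are those mixes is not given. Read depth is not given either, but for part of the genes low values recur at a fixed ratio between cells (9.46% of the low-value ratios in the lowest cell and 22.6% in the median cell lay at the most frequent ratio). A relative depth read from that ratio was 0.845 to 1.65 in block 1 and 0.145 to 1.51 in block 2, where 1 is the median cell.

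Pou5f1 was the gene with the fewest positive cells. Its values ran from 0 through a median of 0.150 to 848 FPKM. It was listed at 0 in 22 cells, lay between 0 and 1 FPKM in 12, between 1 and 10 FPKM in 1, and at 10 FPKM or more in 10, which held 20.2 to 848 FPKM. The 5 highest cells carried 86.3% of the summed level. Cell 30 was the highest, followed by cell 59 at 403 FPKM, cell 63 at 342 and cell 20 at 306. The 10 cells at 10 FPKM or more were 4 of 23 in block 1 and 6 of 22 in block 2.

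Sox2 was spread more widely and at lower values. It ran from 0 through a median of 6.70 to 357 FPKM, with 1 cell at 0 and only 2 cells at 100 FPKM or more. For Sox2, Lin28a, Utf1 and Fgf4 the low values could be read as whole reads: all 13, 5, 6 and 16 values of up to 20 reads lay within 0.1 read of a whole number, a reading chosen after the values were seen. By that reading Sox2 had a median of 48 reads per cell, 11 cells with 1 to 9 reads and 33 with 10 or more. A single read of Sox2 was worth 0.125 FPKM in the median cell, so values below 1 FPKM rested on a few reads. The size of 1 read was set from each gene's own lowest values, so a value of 1 read was whole by construction. That covers 4 cells for Lin28a, 3 for Fgf4, 2 for Utf1 and 1 for Sox2. The low values of Pou5f1 did not come out whole and give no read numbers. Sall4 had no low values, with 1023 FPKM as its lowest, and so gives none either.

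Lin28a, Utf1 and Fgf4 were at 0 in some cells and above 100 FPKM in others, with cells in between. Lin28a ran from 0 through 154 to 1224 FPKM, with 27 cells at 100 FPKM or more, 4 between 10 and 100, 5 between 1 and 10, 5 above 0 but under 1, and 4 at 0. Utf1 ran from 0 through 158 to 795 FPKM, also with 27 cells at 100 or more, and its other cells were graded, with 7 between 10 and 100 FPKM, 6 between 1 and 10, 2 above 0 but under 1, and 3 at 0. Fgf4 ran from 0 through 0.783 to 1011 FPKM, with 12 cells at 100 or more, 5 between 10 and 100, 5 between 1 and 10, 14 above 0 but under 1 FPKM, and 9 at 0. In reads, Fgf4 had 13 cells with 1 to 9 reads and 12 with 1000 or more.

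Most markers of other lineages were listed at 0 in every cell. Of 29 markers of fibroblasts, primitive endoderm, primitive streak, neuroectoderm and trophectoderm in the table, 22 were listed at 0 in all 45 cells, among them Gata4, Gata6, Sox17, T and Cdx2, and the most widely seen, Mixl1, was above 0 in 6 cells. The highest mean over the 45 cells was 7.91 FPKM for a primitive streak marker and 7.87 FPKM for a trophectoderm marker. No marker of these lists reached 1 FPKM in more than 3 cells, so these means rest on high values in few cells. In the pool the 29 markers were low, with a highest value of 8.89 FPKM, for Nes. A listed 0 is no proof of absence, since Arpc3, a subunit of the Arp2/3 actin complex, was at 162 FPKM in the pool and at 0 in all 45 cells, and Bst2 at 124 and 0 (both named after their values were seen). Of the embryonic stem cell markers, Fut4, which encodes a fucosyltransferase, was at 0 in every cell and at 0.391 FPKM in the pool.

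The blocks differed in different ways for the 6 genes. Fgf4 was above 0 in 23 of 23 cells of block 1 and 13 of 22 of block 2, but at 10 FPKM or more in 9 and 8. Lin28a reached 1 FPKM in 22 of 23 cells of block 1 and 14 of 22 of block 2, but 100 FPKM in 14 and 13. Utf1 was above 0 in 23 of 23 and 19 of 22, and at 100 FPKM or more in 17 of 23 and 10 of 22, so its gap was wider at high values. Sox2 was above 0 in 23 of 23 and 21 of 22, and at 10 FPKM or more in 8 of 23 and 12 of 22, more often in block 2. The shallower cells are mostly in block 2, and the part of depth in these counts was not tested.

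**Figure D3:**
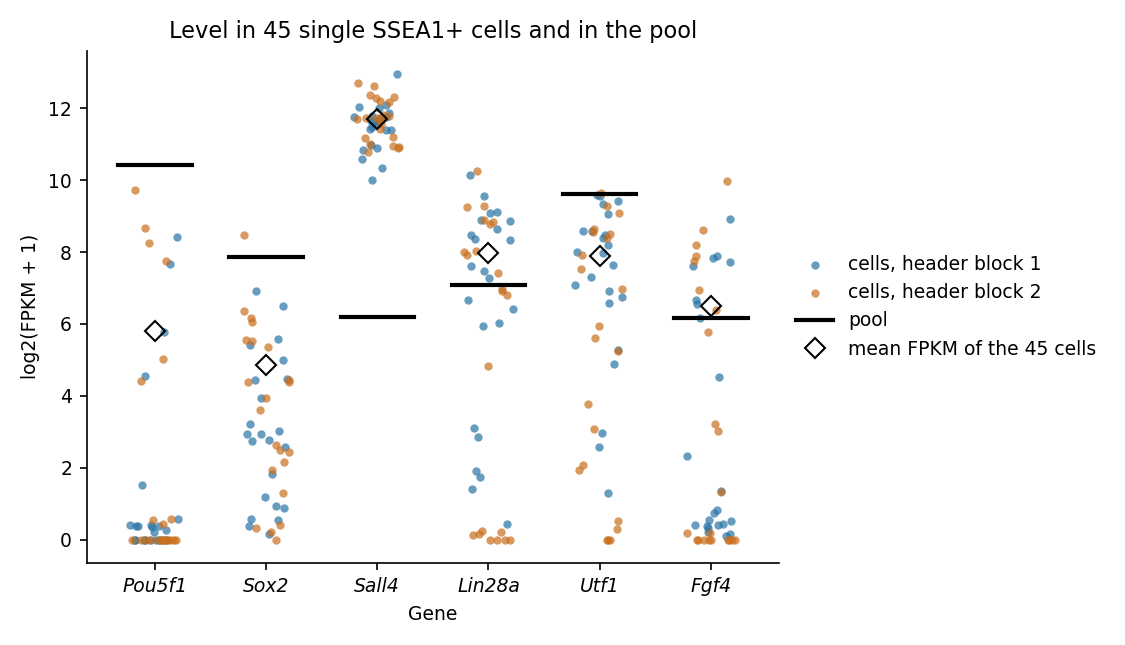
log2(FPKM + 1) of each gene in the 45 cells (points, coloured by block of columns), in the pool (black bar) and as the mean FPKM over cells (diamond); horizontal scatter within a gene has no meaning. Sall4 sits at 1023 to 7950 FPKM in all cells and far above its pool value of 72.4, Pou5f1 is below its pool value of 1370 in all 45 cells, and Lin28a, Utf1 and Fgf4 reach from 0 to 1224, 795 and 1011 FPKM.

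Sall4 alone was high in every cell. It was at 1023 FPKM or more in all 45 cells, with a median of 3241 and a highest value of 7950 FPKM, and 100% of cells passed even 100 FPKM. Its coefficient of variation over cells was 0.429, and only 2.41% of the 996 genes with a mean of 100 FPKM or more varied less. Those of the others were 1.03 for Utf1, 1.17 for Lin28a, 2.02 for Fgf4, 2.06 for Sox2 and 2.84 for Pou5f1. It ranked 13 of 23235 genes in the mean of the cells and 1429 in the pool.

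The pool and the cells disagreed for 4 of the 6 genes by 2-fold or more on the log2(FPKM + 1) scale. Pou5f1 was at 1370 FPKM in the pool and at a mean of 54.4 FPKM in the cells, a 25.2-fold difference (log2 4.63), and no cell reached the pool value. Sox2 was at 233 and 27.9 FPKM (8.38-fold, log2 3.02), and Utf1 at 787 and 238 FPKM (3.31-fold, log2 1.72). Each of these 2 exceeded its pool value in 1 cell. Sall4 was the reverse, at 72.4 FPKM in the pool and a mean of 3337 FPKM in the cells, 46.1-fold higher (log2 -5.51), with every cell above the pool. Of the 11997 genes tested, 55.7% were at least 2-fold higher in the pool and 13% at least 2-fold lower, so 3 of 6 higher is near the share of all genes.

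Lin28a (136 FPKM in the pool, mean 252 in the cells, log2 -0.88) and Fgf4 (70.7 and 90.2 FPKM, log2 -0.35) were within 2-fold. For Lin28a 23 cells were above the pool and 22 below. For Fgf4 15 were above and 30 below, and its median cell, at 0.783 FPKM, was 90.3-fold under the pool although the mean was close to it. Nanog was at 287 and 44.4 FPKM, while Zfp42, at 502 and 639 FPKM, was close to even.

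The direction for Pou5f1, Sox2, Utf1 and Sall4 held in each block. The mean of Pou5f1 was 27.1 FPKM in block 1 and 82.9 in block 2, both far under the pool, and that of Sall4 was 3119 and 3565 FPKM. Among all genes tested, 186 had a larger positive pool difference than Pou5f1 and 27 a larger negative one than Sall4. Over these genes the Pearson r between pool and mean of cells was 0.685 on the log2 scale, a description across genes, which are not independent.

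Sall4 was not alone in exceeding the pool. Named after their values were seen, Set was at 172 FPKM in the pool and 13758 in the cells, Ptges3 at 66.5 and 12033, Actb at 1108 and 19751, and Slc24a5, a pigment cell ion exchanger, at 0.615 and 1909, and all 4 were at 1 FPKM or more in every cell. Bulk libraries gave Slc24a5 0.514 to 1.71 FPKM. The bulk table was scaled apart from the cells, but there Sall4 (31.8 to 83.4 FPKM) stood below Pou5f1 in all 5 libraries, as in the pool and unlike the cells. What sets the level of Sall4 in the cells was not tested.

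**Figure D4:**
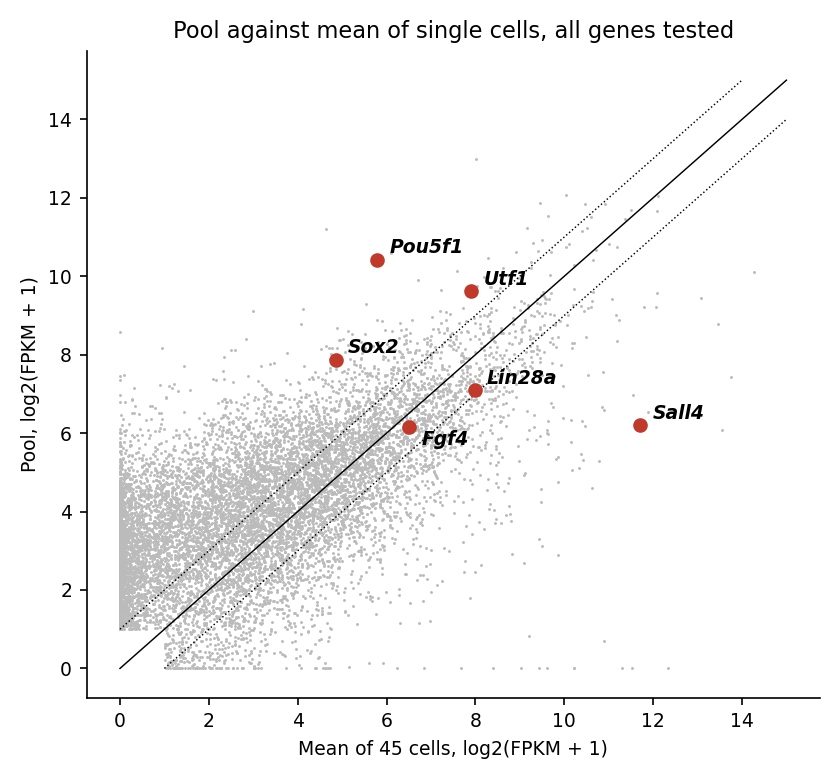
Pool against mean of the 45 cells, both as log2(FPKM + 1), for the 11997 genes tested (grey) and the 6 genes (red); the solid line is equality and the dotted lines 2-fold. Pou5f1, Sox2 and Utf1 lie above the upper dotted line, Sall4 far below the lower one at 46.1-fold, and Lin28a and Fgf4 between the lines.

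The number of cells with all 6 genes is capped by Pou5f1, which reached 10 FPKM in 10 cells and 1 FPKM in 11. At 10 FPKM or more, 17 of 45 cells had 3 of the 6 genes, 13 had 4, 7 had 5, 6 had 2 and 1 had 1. All 6 were present in 1 cell, cell 30, which was also the cell with the highest Pou5f1. The most frequent combination was Sall4, Lin28a and Utf1 without the other 3, in 8 cells. At 1 FPKM, 5 cells had all 6.

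Pou5f1 and Sox2, whose products bind DNA as a pair, stood near 0 in their relation between cells. At 10 FPKM or more, 5 cells had both, 5 had Pou5f1 alone, 15 had Sox2 alone and 20 neither, where the product of the separate shares gives 4.44 cells with both. Spearman's rho was -0.035 over 45 cells, -0.086 in block 1 and 0.012 in block 2. Cell 59 had 403 FPKM of Pou5f1 and 2 reads of Sox2 (0.250 FPKM), and cell 74 had 31.7 FPKM of Pou5f1 and 65.4 of Sox2.

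Over the 15 pairs rho ran from -0.306 to 0.284, with a median of -0.004, and 7 pairs were above 0. All pairs of the 1557 genes that reached 1 FPKM in 50% of cells or more had a median of 0.023, with 5% below -0.239 and 5% above 0.283. Pou5f1 and Fgf4, at 1 FPKM in 24.4% and 48.9% of cells, did not meet that limit. The 1557 genes are therefore not a matched reference for all 15 pairs. The cells come from the same sorted population and differ in relative depth (0.145 to 1.65), and these values are a description with no test. Sall4 and Utf1 were the lowest pair (-0.306; -0.222 and -0.327 by block). Lin28a and Fgf4 were the highest (0.284), but stood at -0.042 in block 1 and 0.403 in block 2, and Sall4 and Lin28a were at 0.265 (0.288 and 0.306). Of the 15 pairs 7 had the same sign in both blocks.

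Fgf4, a known target of Oct4 and Sox2, was at a rho of 0.179 with Pou5f1 (-0.136 and 0.325 by block) and 0.169 with Sox2 (0.330 and 0.136). At 10 FPKM or more, 10 cells had Fgf4 with Sox2, where the shares give 7.56. Utf1, another target, was at -0.168 with Pou5f1 (-0.077 and -0.183 by block) and -0.133 with Sox2, where the sign differed between blocks (0.066 and -0.159). Tbx3, which reached 1 FPKM in 13 cells, was at -0.384 with Utf1, 0.267 with Sox2 and between -0.088 and 0.073 with the other 4. With Nanog all 6 lay between -0.075 and 0.106.

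**Figure D5:**
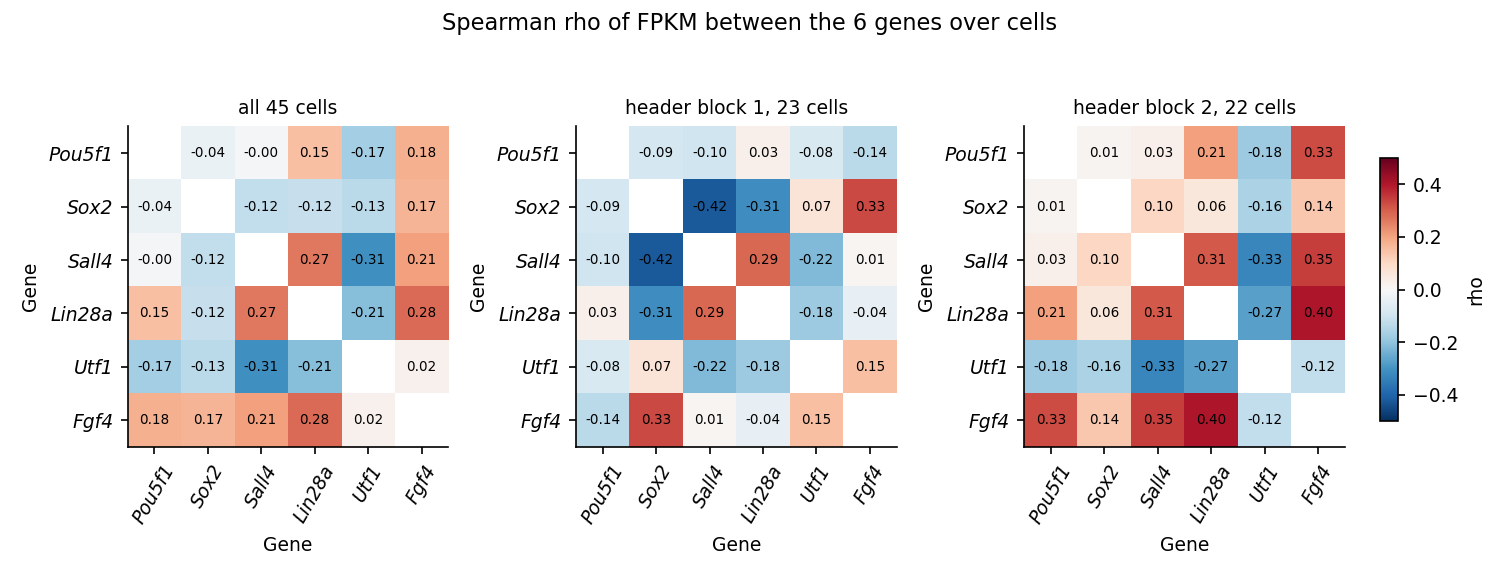
Spearman's rho of FPKM for each pair of the 6 genes over all 45 cells (left), the 23 cells of block 1 (middle) and the 22 of block 2 (right), coloured from -0.5 to 0.5. Pou5f1 with Sox2 is near 0 in all 3 panels, Sall4 with Utf1 is negative in all 3, and Lin28a with Fgf4 is -0.042 in block 1 and 0.403 in block 2.

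The 3 genes most like each of the 6 over the 45 cells, by Spearman's rho, were taken from 1553 scanned. For Sox2 they were Ttyh2 (rho 0.545), Pttg1 (0.493), which encodes securin, and Mphosph8 (0.474), and for Utf1 Enc1 (0.551), Ruvbl1 (0.536) and Cks2 (0.512). Pou5f1 had Yme1l1 (0.463), Api5 (0.436) and Clasp2 (0.430), and Sall4 had Mrpl18 (0.498), Polr2l (0.422) and 2410004N09Rik (0.415). Lin28a had Mrps18c (0.520), Adipor1 (0.512; 0.085 in block 1 and 0.764 in block 2) and Cbx3 (0.498), and Fgf4 had Gm13363 (0.526), Prpf39 (0.499) and Hdgf (0.466). Each is the highest of many values, so its size is inflated by the choice, and with the number of genes per cell the 6 were at a rho of -0.072 to 0.367, highest for Lin28a.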

How the data were processed

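TopHat, Cufflinks and Cuffdiff (bulk) and TopHat and Cuffnorm (single cells) are the tools named for the FPKM values, with mm9 as the build, per the submitters' processing notes; the authors deposited both tables as FPKM. The site score is the authors' deposited peak score. Bowtie 1.0 and HOMER are named for the sites in the submitters' processing notes, and the sources used here do not say which tool scored them. The 2 tables were scaled separately, so values set side by side across them, as for Slc24a5, are not on the same scale. Since FPKM is relative to a library's total, a gene with a large share lowers all others.

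From the deposited FPKM, log2((a + 1)/(b + 1)) was computed for genes that reached 1 FPKM in either library. With 1 library per population no p-value is given. Cells were counted at 1, 10 and 100 FPKM. Pairs were described by Spearman's rho. Sites were placed on the mm9 genome and its GENCODE annotation, and words were searched exactly on both strands. The packages used were pandas 2.3.3, numpy 2.4.6 and scipy 1.17.1. Among the calculations, the counting of sites near starts and the word search were checked on made-up inputs with known answers.

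The 6 genes and all lists were chosen with earlier results of these data known. Beside the 6 genes, Tbx3 and Nanog, the text names up to 3 genes per list and comparison with the largest difference at 5 FPKM or more, the 3 genes most like each of the 6 over cells among genes that reached 1 FPKM in 50% of cells or more, the sites within 20 kb and the nearest site where there was none; some genes that the rule gives are not named. The control precipitation was not analysed here. Alternatives changed the pseudocount, fold, filter, scaling, threshold, cells used, measure of relation and window.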

Additional observations from a re-analysis of the deposited data

Results flagged for a closer look

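Of the 6 genes, 4 differed in opposite directions when Tbx3 was lowered in the allele set (N/N against +/+) and in the hairpin pair (shTbx3 against shLuc). The log2 difference of the hairpin pair minus that of the allele pair was 0.42 for Pou5f1, 0.50 for Sox2, 0.73 for Sall4 and -0.46 for Lin28a. Each pair has 1 library a side, so the difference between the pairs was not tested. With the median gene of each comparison set to 0, Pou5f1 in the hairpin pair was at -0.05 and no longer opposite, while Sox2, Sall4 and Lin28a stayed opposite. Fgf4 became opposite on that scale, at 0.009 in the allele pair, a very small value, and -0.83 in the hairpin pair.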

How the results depend on the processing

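The count of the 6 genes at least 2-fold different stayed at 0 in all 4 bulk comparisons with a pseudocount of 0.1 or 5, with the median gene set to 0, without the filter on low values and without small RNA genes. A 1.5-fold limit gave 0 in the allele comparisons and 1, Fgf4, in the hairpin pair. The median share of cells with a gene, 78.9% at 1 FPKM, was 92.2% for any value above 0 and 56.7% at 10 FPKM. It was 84.8% in block 1 and 70.5% in block 2, alternatives chosen after seeing the data. The number of genes at least 2-fold apart between pool and cells was 4 or 5 in each alternative. Against the median cell in place of the mean, the log2 difference was 10.22 for Pou5f1, 4.93 for Sox2, 5.33 for Fgf4 and 2.31 for Utf1. The number of Tbx3 sites near the 6 genes, 14 within 20 kb, was 9 within 5 kb and also 9 for sites at or above the median score, where Sall4 had none. The median rho of pairs stayed between -0.077 and 0.055. No paired analysis was possible because each bulk population has 1 library and the cells carry numbers of their own. Unknown read depth limits the bulk values, and few reads per cell limit the low single-cell values.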
